A study of Mus musculus with 12 samples.

Results

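Killer lectin-like receptors are C-type lectin-like membrane proteins, most of them encoded side by side in the natural killer (NK) gene complex of mouse chromosome 6. The members described here are 7 genes taken by symbol, Klrk1, Klrd1, Klrc1, Klrc2, Klre1, Klrb1c and Klrg1, and all 7 were found among the 55291 symbols of the count table. Bulk RNA sequencing covered CD8+ T cells that had been isolated from lymph nodes and spleen of male wild-type mice, in 4 groups of 3 libraries. Naive cells were lysed on day 0 without activation. The other 3 groups shared 2 days of activation, by anti-CD3 bound to the plate plus soluble CD28, and 1 day of expansion with rmIL-2, and then spent 24 hours in media, in a bovine collagen gel (Nutragen in the sample names) or in a rat tail collagen gel (RatCol), both gels at 2 mg/mL. They were lysed on day 4. Strain and age of the mice, and whether activated cells of a replicate number came from the same mouse in each condition, are not given in the labels used here, so p-values measure the spread between these libraries.

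These receptors let NK cells and cytotoxic T cells read class I and stress ligands on other cells. CD94, the product of Klrd1, pairs with NKG2A (Klrc1) into an inhibitory receptor or with NKG2C (Klrc2) into an activating one, and both bind the class Ib molecule Qa-1. NKG2D, the product of Klrk1, binds stress-induced ligands and costimulates CD8+ T cells through the adaptor DAP10 (Hcst), and KLRG1 is an inhibitory receptor for cadherins that marks short-lived effector T cells.

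Totals ran from 28483064 to 53138362 counts per library. Ribosomal RNA genes took 12.02% of counts in bovine collagen library 2, 11.17% in rat tail collagen library 1 and 13.43% in rat tail collagen library 3, against 4.029% to 6.575% in the other libraries. Replicates of a group differed by more than counting noise in every pair. Summed CD8 T cell markers (Cd8a, Cd8b1, Cd3e, Cd3d, Cd3g, Trac) stood at 2044 to 4139.8 CPM (the read count relative to the scaled library total) in the 12 libraries, so the labelled cell type had its markers in each. Summed markers of myeloid cells were 126 CPM in naive library 1, against 46.3 and 34.4 CPM in the other naive libraries. Levels below are CPM on a single scale over the 12 libraries, given as mean ± SD with n = 3. In bulk RNA, fewer cells that express a gene and less RNA of it per cell cannot be told apart.

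Apart from Klrg1, the genes lie within 900.5 kb of chromosome 6 on the build GRCm38 (GENCODE M21). In order of position these are Klrb1c at chr6:128778485-128789215 (minus strand), Klre1 at chr6:129577905-129585827 (plus), Klrd1 at chr6:129591782-129598775 (plus), Klrk1 at chr6:129610323-129623864 (minus), Klrc2 at chr6:129647496-129660689 (minus) and Klrc1 at chr6:129666015-129678973 (minus). Klrg1 lies apart at chr6:122270596-122282882 (minus), 6.5 Mb from the cluster. All are protein coding. Promoter sequence was found in the RefSeq table (GRCm38.p6) for 5 of the 7. The 250 bases before the start are shown for Klrb1c, which moved in one direction, and for Klrk1 and Klrc1, which moved together in the other. Capitals mark matches, on either strand, to the RUNX core TGTGGT, which reads as its reverse complement in Klrc1. They also mark matches to the ETS core, which is spelled GGAAGT. The T-box core GTGTGA was searched on both strands as well but did not occur in the windows shown. Nor did the AP-1 site, with the letters TGANTCA.
Klrb1c, chr6:128788642-128788891, minus strand: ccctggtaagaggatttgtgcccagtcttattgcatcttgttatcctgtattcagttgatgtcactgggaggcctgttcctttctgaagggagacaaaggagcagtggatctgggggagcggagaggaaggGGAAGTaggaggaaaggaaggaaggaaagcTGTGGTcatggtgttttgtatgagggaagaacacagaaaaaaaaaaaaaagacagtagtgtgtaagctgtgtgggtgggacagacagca
Klrk1, chr6:129623865-129624114, minus strand: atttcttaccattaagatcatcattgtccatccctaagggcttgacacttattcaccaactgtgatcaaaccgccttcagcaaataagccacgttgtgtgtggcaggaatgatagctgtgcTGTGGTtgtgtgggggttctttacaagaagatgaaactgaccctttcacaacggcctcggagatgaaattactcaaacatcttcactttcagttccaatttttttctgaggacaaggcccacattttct
Klrc1, chr6:129678974-129679223, minus strand: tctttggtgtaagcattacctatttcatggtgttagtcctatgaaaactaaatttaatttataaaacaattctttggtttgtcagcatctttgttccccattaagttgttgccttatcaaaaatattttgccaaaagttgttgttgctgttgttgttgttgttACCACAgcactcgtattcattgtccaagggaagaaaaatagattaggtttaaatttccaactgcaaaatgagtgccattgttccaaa
The RUNX core stood 89 bases before the start in Klrb1c, 129 bases before it in Klrk1 and 87 bases before it in Klrc1, and Klrb1c also held the ETS core 119 bases before the start. The same RUNX core was found at 36 and 9 bases before a start of Klrc2 and at 229 bases before 1 of the starts of Klre1. All 5 genes with a sequence thus held it, including genes that moved in opposite directions, and 14.0% of 32851 promoter windows of this length held it. The ETS core occurred in 19.7% of the same windows. The Klrb1c window lies inside the GENCODE gene, whose longest model starts farther upstream. A match describes the letters of the window and is not a binding site.

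Klrk1 had its lowest levels in naive cells and its highest in media and bovine collagen. Its level was 36.2, 23.7 and 18.9 CPM in naive libraries 1, 2 and 3 (26.2 ± 8.90), 279, 239 and 159 CPM in media (226 ± 60.9), 282, 263 and 169.9 CPM in bovine collagen (238 ± 60) and 93.7, 97.6 and 57.2 CPM in rat tail collagen (82.9 ± 22.3). All rat tail libraries lay above all naive and below all media and bovine libraries. NKG2D transcripts thus rose by 3.17 on the log2 scale from naive to media (SE 0.31, 8.98-fold, adjusted p = 9.27e-05) and were lower by a log2 fold change of -1.45 in rat tail collagen than in media (SE 0.28, 2.74-fold, adjusted p = 0.00142). Rat tail collagen still stood 3.17-fold above naive (log2 fold change 1.67, SE 0.32, adjusted p = 0.00524). Against bovine collagen the log2 fold change of rat tail collagen was -1.53 (SE 0.28, adjusted p = 0.00114), and without the 3 libraries of highest ribosomal share it was -1.21 with adjusted p = 0.0563. That setting leaves 1 rat tail library, which is assumed to vary like the libraries of the other groups. A call lost in it therefore does not decide whether the change was smaller.

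The adaptor gene Hcst, whose product DAP10 carries the NKG2D signal, went the other way on activation. It stood at 50.8 ± 6.87 CPM in naive cells, 14.4 ± 0.291 CPM in media, 14.7 ± 1.84 CPM in bovine collagen and 7.30 ± 0.779 CPM in rat tail collagen. It fell by 1.75 on the log2 scale from naive to media (adjusted p = 6.89e-07), and rat tail collagen was lower than media by a log2 fold change of -0.99 (adjusted p = 1.60e-05). Per kilobase of exon, Klrk1 over Hcst was 0.0753, 0.0521 and 0.0324 in the naive libraries, 1.90, 1.70 and 1.11 in media and 1.47, 1.27 and 0.738 in rat tail collagen. The naive ratios lay below all others, and rat tail and media ratios overlapped. An exact two-sided permutation test gave p = 0.1 for media against naive, the smallest that 3 libraries against 3 can give, and p = 0.300 for rat tail collagen against media.

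Klrd1, the CD94 gene, was the most abundant of the 7 per kilobase of exon in every group. Its level was 90.9, 91.6 and 65.8 CPM in naive libraries (82.8 ± 14.7), 327, 286 and 269.8 CPM in media (294 ± 29.5), 261, 294 and 267 CPM in bovine collagen (274 ± 17.7) and 88.2, 78.7 and 41.6 CPM in rat tail collagen (69.5 ± 24.6). Rat tail and naive libraries overlapped, and both lay far below media and bovine collagen. Klrd1 rose by 1.89 on the log2 scale from naive to media (SE 0.14, 3.71-fold, adjusted p = 4.62e-06), and its log2 fold change in rat tail collagen against media was -2.09 (SE 0.23, 4.25-fold lower, adjusted p = 2.02e-05). Against naive, rat tail collagen differed by -0.25 with a 95% interval of -1.03 to 0.54 (adjusted p = 0.509).

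Klrc1, the gene of the inhibitory partner NKG2A, changed less. Its level was 10.7, 6.16 and 4.94 CPM in naive libraries (7.26 ± 3.02), 26.2, 19.7 and 17.2 CPM in media (21.0 ± 4.61), 24.1, 20.9 and 18.7 CPM in bovine collagen (21.2 ± 2.75) and 16.6, 13.0 and 11.3 CPM in rat tail collagen (13.6 ± 2.70). No rat tail library reached the lowest media or bovine library, and none fell to the highest naive library. The gene rose 3.02-fold from naive to media (log2 fold change 1.60, SE 0.27, adjusted p = 9.21e-04), and it was 1.55-fold lower in rat tail collagen than in media (log2 fold change -0.63, SE 0.17, adjusted p = 0.00728). This last call did not hold with 1 rat tail library, after the 3 libraries of highest ribosomal share were left out (-0.69, adjusted p = 0.0715), and with offsets for GC content and length (-0.40, adjusted p = 0.145).

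Klrc2, which encodes the activating partner NKG2C, had the smallest change among those called in rat tail collagen against media. Its level was 9.42, 4.09 and 4.51 CPM in naive libraries (6.01 ± 2.96), 8.46, 8.76 and 7.97 CPM in media (8.40 ± 0.399), 9.34, 9.59 and 8.42 CPM in bovine collagen (9.12 ± 0.616) and 7.48, 5.83 and 5.51 CPM in rat tail collagen (6.27 ± 1.06). Naive library 1 stood above every media library while the other 2 naive libraries stood below every rat tail library, so naive overlapped each group. Rat tail collagen was 1.35-fold lower than media (log2 fold change -0.43, SE 0.13, adjusted p = 0.0135), a call that was lost without rat tail library 2 (-0.38, adjusted p = 0.0605), without rat tail library 3 (-0.35, adjusted p = 0.0526), without the 3 libraries of highest ribosomal share, which leaves 1 rat tail library (-0.53, adjusted p = 0.0516), with GC and length offsets (-0.21, adjusted p = 0.220) and in a fit of all 12 libraries (-0.42, adjusted p = 0.150). Media against naive did not pass (0.55, adjusted p = 0.125), and without naive library 1 it did, at 1.0 (adjusted p = 4.25e-04).

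Klrd1 and its partners therefore did not keep a fixed proportion of reads. Per kilobase, Klrd1 over Klrc1 was 13.2, 23 and 20.6 in naive libraries, 19.4, 22.4 and 24.3 in media, 16.8, 21.8 and 22.2 in bovine collagen and 8.23, 9.35 and 5.70 in rat tail collagen. Every rat tail ratio lay below every ratio of the other groups, with means of 7.76 ± 1.87 in rat tail collagen and 22.0 ± 2.47 in media. An exact two-sided permutation test of these 3 against 3 libraries gave p = 0.1, the smallest it can give. Klrc1 transcripts share 40.3% of their stretches of 50 bases with Klrc2, and Klrc2 shares 9.42% with Klrc3, so reads of these paralogs may have been divided between them and their separate values are uncertain.

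**Figure D1:**
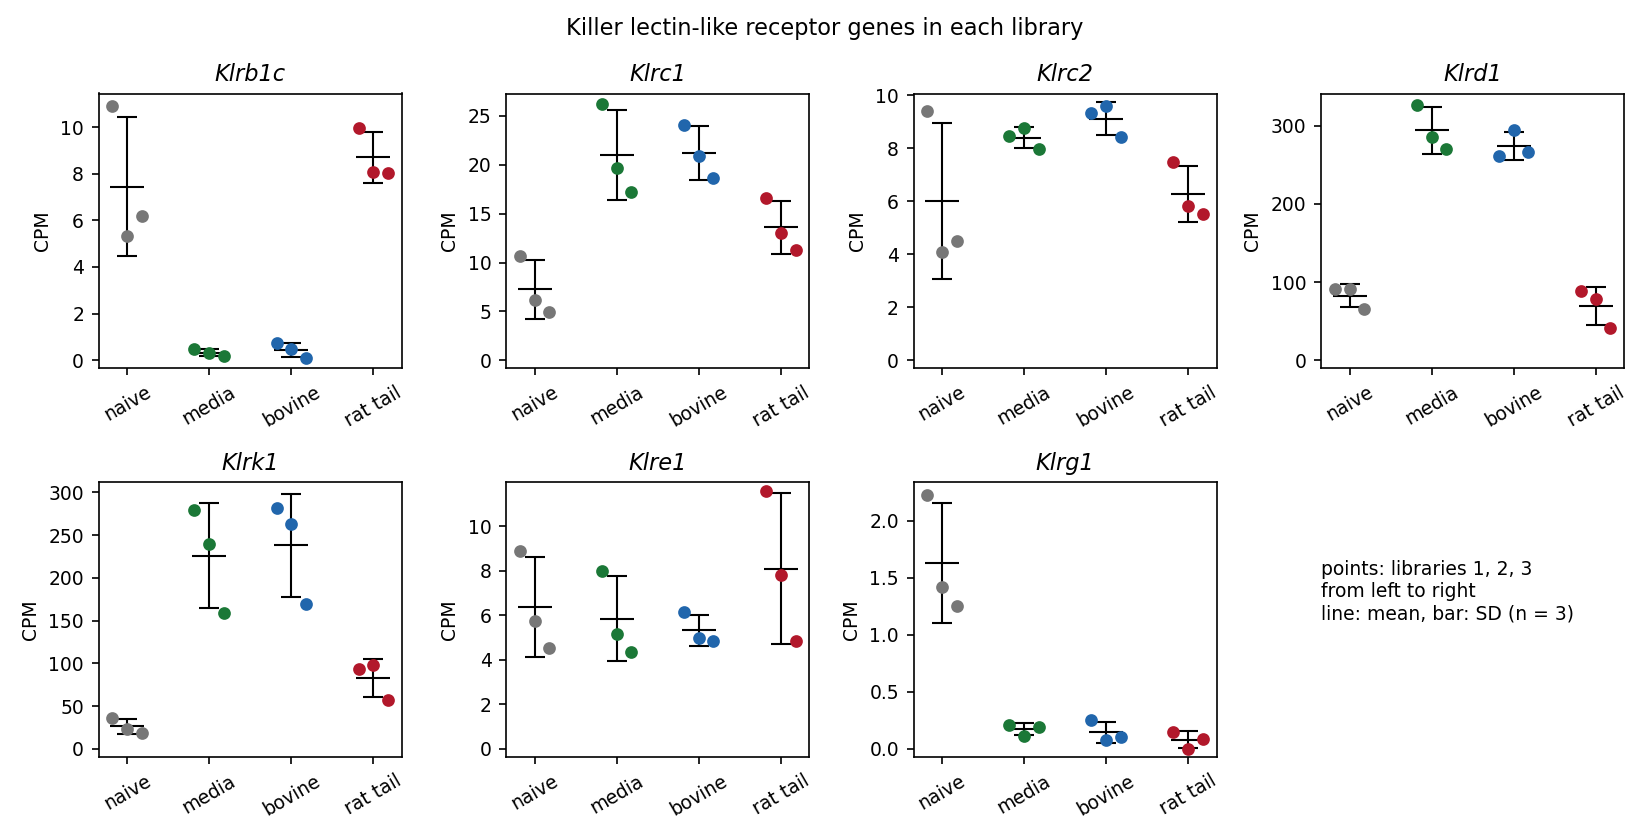
Level of each receptor gene in CPM (vertical axis, linear, 1 scale per panel) in the 4 groups; points are libraries 1 to 3 from left to right, with the mean and SD (n = 3). Klrk1, Klrd1 and Klrc1 are high in media and bovine collagen and lower in rat tail collagen, and Klrb1c is high in naive cells and rat tail collagen, and at most 0.725 CPM in every media and bovine library.

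Klre1 encodes a receptor that pairs with the KLRI proteins and lacks a signalling motif of its own. Its level was 8.87, 5.72 and 4.53 CPM in naive libraries (6.37 ± 2.24), 7.98, 5.17 and 4.36 CPM in media (5.84 ± 1.90), 6.13, 4.96 and 4.86 CPM in bovine collagen (5.32 ± 0.709) and 11.6, 7.80 and 4.85 CPM in rat tail collagen (8.09 ± 3.38). The 4 groups overlapped, and library 1 was the highest in each. No comparison of Klre1 passed: the log2 fold change of rat tail collagen against media was 0.46 with a 95% interval of -0.17 to 1.09 (adjusted p = 0.189), and without rat tail library 3 it was 0.72 with adjusted p = 0.0320.

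Klrb1c encodes NK1.1, an activating receptor used as a marker of NK and NKT cells, and it ran opposite to the Klrd1 and Klrk1 pattern. Its level was 10.9, 5.32 and 6.17 CPM in naive libraries (7.45 ± 2.98), 0.477, 0.323 and 0.171 CPM in media (0.324 ± 0.153), 0.725, 0.476 and 0.102 CPM in bovine collagen (0.434 ± 0.314) and 9.96, 8.09 and 8.05 CPM in rat tail collagen (8.70 ± 1.09). Naive and rat tail libraries overlapped, and each was above every media and bovine library. Klrb1c fell by 4.44 on the log2 scale from naive to media (SE 0.39, 21.6-fold, adjusted p = 1.38e-05) and was 26.2-fold higher in rat tail than in media libraries (log2 fold change 4.71, SE 0.41, adjusted p = 2.39e-06). Rat tail collagen against naive gave 0.23 with a 95% interval of -0.37 to 0.82 (adjusted p = 0.451), and 0.59 with adjusted p = 0.00516 without naive library 1. Klrb1c shares 18.1% of its stretches of 50 bases, and 413 exon bases, with the overlapping model Gm44511, which had 0 counts in all 12 libraries, so its own count may be incomplete.

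Klrg1 was low in every group. It had 85, 54 and 52 counts in naive libraries (2.23, 1.42 and 1.25 CPM, 1.63 ± 0.523), 11, 5 and 9 counts in media (0.173 ± 0.0504 CPM), 9, 2 and 4 counts in bovine collagen (0.144 ± 0.0933 CPM) and 5, 0 and 3 counts in rat tail collagen (0.0784 ± 0.0750 CPM). A count of 0 in rat tail library 2 allows up to 0.0502 CPM, counting error only. Every naive library lay above every day 4 library. The gene fell by 3.15 on the log2 scale from naive to media (SE 0.36, 8.85-fold, adjusted p = 6.95e-05) and by 4.59 from naive to rat tail collagen (SE 0.62, adjusted p = 1.25e-04). With so few reads the last value depended on single libraries: it was -5.49 without rat tail library 1 and -3.74 without rat tail library 2, called in both. It did not pass the filter on low counts among day 4 libraries. The ratio of summed reads, rat tail collagen over media, was 0.356 with an exact 95% interval of 0.139 to 0.813 for counting error alone, and with every gene kept the adjusted p over libraries was 0.0805.

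Per kilobase of exon, the order in media was Klrd1 at 229.6 ± 23 CPM, Klrk1 at 31.4 ± 8.48 CPM, Klrc1 at 10.6 ± 2.32 CPM, Klre1 at 1.67 ± 0.544 CPM, Klrc2 at 1.44 ± 0.0686 CPM, Klrg1 at 0.122 ± 0.0356 CPM and Klrb1c at 0.109 ± 0.0517 CPM. Klre1 and Klrc2 did not differ beyond their spread, nor did Klrg1 and Klrb1c. In rat tail collagen the first 3 places were the same, at 54.3 ± 19.2, 11.5 ± 3.10 and 6.88 ± 1.36 CPM per kilobase. Klrb1c followed at 2.94 ± 0.369 CPM, within the spread of Klre1 at 2.31 ± 0.969 CPM, then Klrc2 at 1.08 ± 0.182 CPM and Klrg1 at 0.0554 ± 0.0531 CPM. In naive cells Klrd1 stood at 64.6 ± 11.4 CPM per kilobase, and Klrc1 (3.66 ± 1.52), Klrk1 (3.65 ± 1.24) and Klrb1c (2.52 ± 1.01) could not be ordered beyond their spread. These values divide by all annotated exon bases of a gene, 7183 for Klrk1, whose longest transcript has 3259. For Klrc1 both lengths are 1984, so the order of genes with close values depends on this choice of length.

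Over the 7 genes, rat tail collagen against media was tested in 6, of which Klrb1c was higher and 4 (Klrc1, Klrc2, Klrd1, Klrk1) were lower. In this comparison 58.4% of 19392 genes were called, 29.7% higher and 28.7% lower, so most genes tested changed. The median log2 fold change was -0.53 over the 6 and -0.01 over all genes tested. Without the 3 libraries of highest ribosomal share, which leaves 1 rat tail library, Klrb1c was called higher and Klrd1 and Klrk1 lower among these 6. Klrg1, at 0 counts in that library, passed the filter in this setting and was called lower as well. With GC and length offsets 3 were called, 1 higher and 2 lower.

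Bovine collagen against media gave no call among the same 6 genes, with 0.0206% of genes called overall. Counts at an unadjusted p under 0.05, by DESeq2 and by limma-voom were also 0. The 95% intervals of the log2 fold change were -0.81 to 1.54 for Klrb1c, -0.36 to 0.38 for Klrc1, -0.17 to 0.40 for Klrc2, -0.58 to 0.38 for Klrd1, -0.78 to 0.51 for Klre1 and -0.53 to 0.68 for Klrk1. For each of the 5 genes called in rat tail collagen against media, which shares the media libraries, this interval did not reach the log2 fold change seen there.

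The direct comparison of both gels, which shares the rat tail libraries with the comparison above, gave 1 higher and 4 lower of 6, where 54.7% of all genes were called (28.4% higher and 26.4% lower). The log2 fold changes of rat tail against bovine collagen were 4.34 for Klrb1c (adjusted p = 5.79e-06), -1.99 for Klrd1 (adjusted p = 3.24e-05), -0.65 for Klrc1 (adjusted p = 0.00742) and -0.55 for Klrc2 (adjusted p = 0.00408). The gels, at the same collagen concentration, thus differed in these receptors, while Klre1 did not pass (0.59, adjusted p = 0.107; without rat tail library 3, 0.85 and adjusted p = 0.0177). Without bovine collagen library 1 the value of Klrb1c was 5.05. Klrc1 lost its call without the 3 libraries of highest ribosomal share, with 1 rat tail library left (-0.71, adjusted p = 0.0877) and with GC and length offsets (-0.46, adjusted p = 0.102), and Klrc2 in a fit of all 12 libraries (-0.54, adjusted p = 0.0770).

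Against naive cells, media gave 3 higher (Klrc1, Klrd1, Klrk1) and 2 lower (Klrb1c, Klrg1) of 7, where 60.8% of genes were called (31.6% higher, 29.2% lower). Bovine collagen gave 3 higher and 2 lower as well, where 63.3% were called (31.1% higher, 32.2% lower), with log2 fold changes of 3.23 for Klrk1, 1.77 for Klrd1, 1.59 for Klrc1, -4.09 for Klrb1c and -3.39 for Klrg1. Without bovine collagen library 1 the last 2 were -4.77 and -4.02. Klrc2 missed the threshold there (0.64, adjusted p = 0.0859) and passed with DESeq2 (0.66, adjusted p = 0.0277), limma-voom (0.74, adjusted p = 0.0353) and without naive library 1 (1.15, adjusted p = 8.2e-05). Rat tail collagen gave 2 higher (Klrc1 and Klrk1) and 1 lower (Klrg1), where 71.9% were called (36.5% higher, 35.4% lower), and 5 calls without naive library 1. The call of Klrc1 in rat tail collagen against naive (0.92, adjusted p = 0.0254) was lost without naive library 2 (adjusted p = 0.0872), naive library 3 (0.0613), rat tail library 1 (0.0737) or rat tail library 2 (0.0512). These comparisons share the naive libraries.

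**Figure D2:**
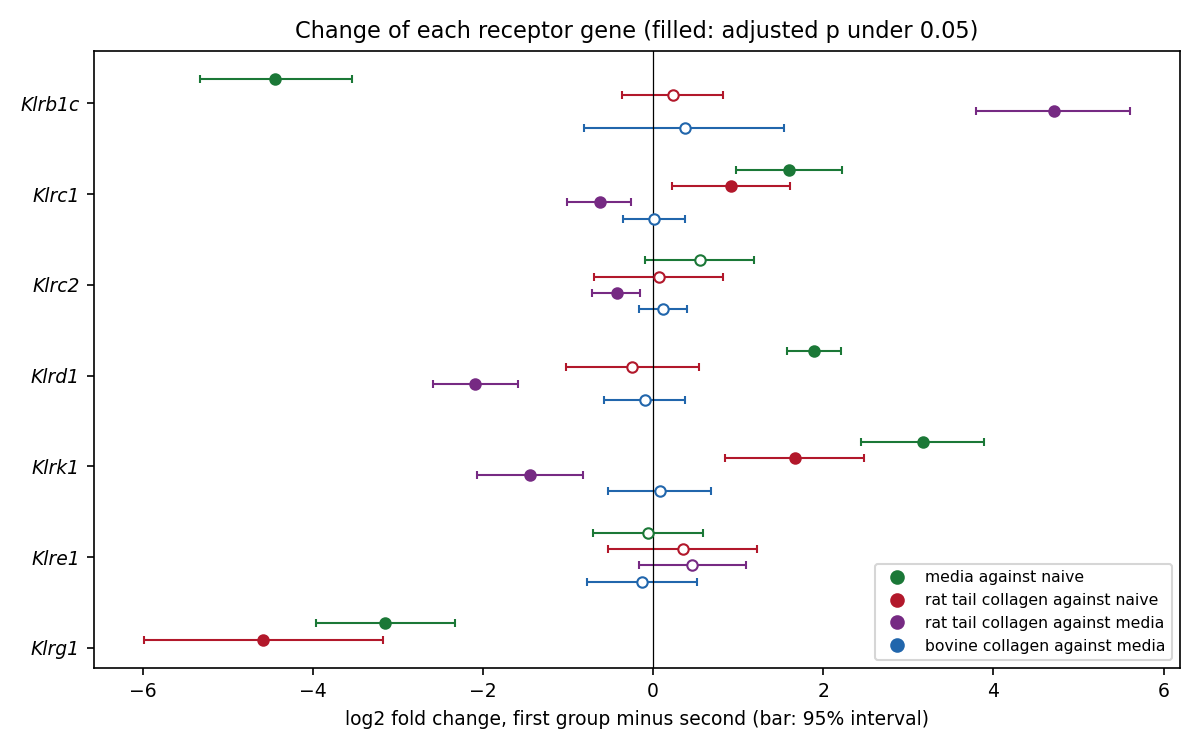
Log2 fold change of each receptor gene (horizontal axis) in 4 comparisons, with 95% intervals as bars; filled points have an adjusted p under 0.05. Klrd1 and Klrb1c show opposite signs in media against naive, and again in rat tail collagen against media; rat tail collagen against naive is open for both; the bovine points are all open.

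Among 20 other killer lectin-like receptor genes, 16 were tested in rat tail collagen against media. There 4 were higher and 6 lower (median -0.65), where 58.4% of all genes tested were called. The 4 higher ones were 3 genes of the Klrb1 group, to which Klrb1c belongs, and Klrg2. Klrb1b, an inhibitory receptor for the product of Clec2d, stood at 0.267, 0.0461 and 0 CPM in the media libraries, against 36.4, 30.2 and 20.5 CPM in those of rat tail collagen (log2 fold change 7.98, adjusted p = 4.45e-07), and above naive cells at 1.20 ± 0.560 CPM (4.6, adjusted p = 2.78e-05). Klrg2 stood at 0.0839 ± 0.0172 CPM in media, against 17.0 ± 5 CPM in rat tail collagen (7.59, adjusted p = 6.24e-08). Klrb1 rose from 0.173 ± 0.0618 to 1.19 ± 0.292 CPM (2.73, adjusted p = 2.20e-05). Klrb1a had 2 counts in the media libraries and 156 in rat tail collagen, a ratio of 86.7 with an exact 95% interval of 23.6 to 722 for counting error (adjusted p over libraries 1.53e-05). Its rat tail level of 1.19 ± 0.509 CPM overlapped that of naive cells at 0.982 ± 0.402 CPM.

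The Klrb1 group did not move as one. Klrb1f fell from 3.48 ± 0.835 CPM in media to 0.620 ± 0.290 CPM in rat tail collagen (-2.42, adjusted p = 4.05e-05), a gene named after its value was seen. The other 5 that fell were of the Ly49 family, which binds classical class I molecules: Klra1 (-0.93), Klra3 (-2.36), Klra6 (-1.80), Klra9 (-2.06) and Klra10 (-2.35). Klrc3, the nearest relative of Klrc2, did not pass (-0.28, adjusted p = 0.224). Klrb1b shares 29.0% of its stretches of 50 bases, and 599 exon bases, with Gm44511, and the Ly49 genes are close copies of each other, so single values in both groups are uncertain.

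**Figure D3:**
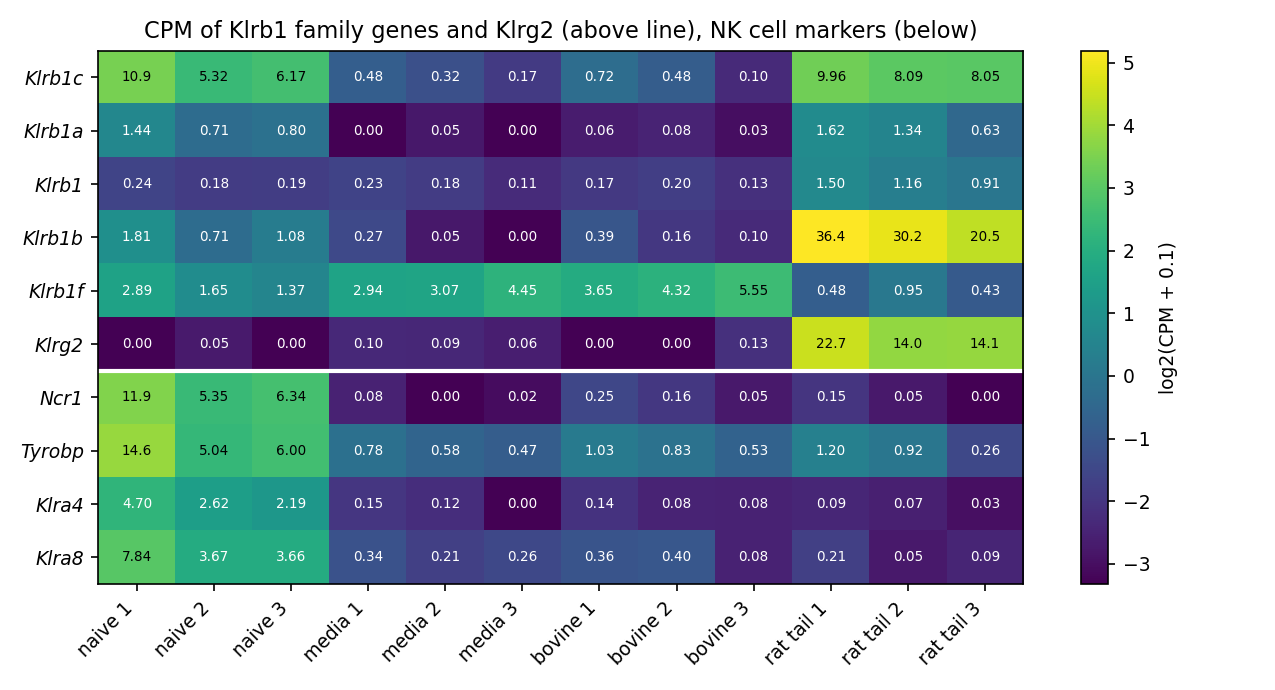
CPM of Klrb1 group genes and Klrg2 (above the line) and of the NK cell markers Ncr1, Tyrobp, Klra4 and Klra8 (below it) in each of the 12 libraries. Colour is log2(CPM + 0.1) and the number in a cell is the CPM. The other NK markers of the list are not shown. Of those, Fcer1g was higher and Fcgr3 and Gzma were lower in rat tail collagen than in media. Klrb1b, Klrb1 and Klrg2 are higher in the rat tail libraries than in all others. Klrb1c and Klrb1a are higher there than in media and bovine collagen, and overlap the naive libraries. In rat tail collagen Ncr1, Klra4 and Klra8 are near 0 and Tyrobp stands at 0.257 to 1.20 CPM.

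Markers of other cell types moved with some of these genes. Of the 9 NK cell markers, 7 were tested in rat tail collagen against media: Fcer1g was higher, and Fcgr3 and Gzma were lower. The summed level of the 9 was 49.9 to 105 CPM in naive cells and 16.8 to 57.2 CPM in media. It was 22.6 to 57.7 CPM in bovine collagen and 9.39 to 19.4 CPM in rat tail collagen. By mean, Gzma was the largest part of this sum in media (21.9 ± 14.8 CPM) and bovine collagen (25.4 ± 13.7 CPM). Klra7 followed, at 8.46 ± 3.37 CPM in media and 9.38 ± 2.87 CPM in bovine collagen. Ncr1, the NKp46 gene, stood at 11.9, 5.35 and 6.34 CPM in naive libraries, next to Klrb1c at 10.9, 5.32 and 6.17 CPM, and their order over the libraries was the same. In rat tail collagen Ncr1 stood at 0.150, 0.0502 and 0 CPM while Klrb1c stood at 9.96, 8.09 and 8.05 CPM. Klra4 and Klra8 were at 0.0617 ± 0.0309 and 0.115 ± 0.0835 CPM there. The other markers of the list were not at 0 in rat tail collagen: Klra7 stood at 5.17 ± 2.73 CPM, Gzma at 3.80 ± 1.40 CPM, Klri2 at 2.38 ± 0.174 CPM, Fcer1g at 2.07 ± 0.691 CPM, Tyrobp at 0.791 ± 0.483 CPM and Fcgr3 at 0.579 ± 0.0178 CPM. Fcer1g was higher together with Klrb1c. The part of NK cells in the level of Klrb1c was not tested. In media, 6 of the 9 NK markers fell from naive cells and none rose (median -2.63), where 29.2% of all genes tested were lower. The part of these markers in the fall of Klrb1c and Klrg1 was not tested.

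Naive library 1 had the highest sum of NK markers and of myeloid markers, and the highest naive level of Klrb1c, Klrc1, Klrc2, Klre1, Klrg1 and Klrk1. The part of these cells in its levels was not tested. Among 8 markers of NKT, gamma-delta and CD4 T cells, of which 7 were tested, Zbtb7b (1.04) was among those higher and Trdc (-0.62) was lower in rat tail collagen than in media, and Foxp3 did not pass (2.25, adjusted p = 0.132). The sum of the 8 was 80.1 to 94.1 CPM in rat tail collagen and 42.0 to 58.3 CPM in media. Zbtb16, which encodes the defining NKT cell factor PLZF, stood at 1.54 ± 0.182 CPM in rat tail collagen and 1.54 ± 0.241 CPM in media (0.00, adjusted p = 0.999). Among 7 myeloid markers, 3 were tested: Cd68 (1.58) and Cd14 (3.25) were higher and Itgam (-1.49) lower, with sums of 17.5 to 24.7 CPM in rat tail collagen and 9.11 to 9.94 CPM in media. The myeloid markers left untested did not all go one way. Mean Lyz2 was 0.0736 CPM with media and 0.00952 CPM with the rat tail gel, and Csf1r was 0.0135 and 0.0112 CPM. Libraries of both groups overlapped for these genes. Adgre1 went from 0.0423 CPM with media up to 0.212 CPM with the rat tail gel, without overlap. S100a8 had no count in any day 4 library. Of 5 B cell markers, 2 were tested: Cd79b (-0.81) was lower and Cd79a (1.06) higher, and the sums were 7.81 to 9.16 CPM in rat tail collagen and 12.6 to 15.3 CPM in media. Among the CD8 T cell markers Trac (-0.97), Cd3g (-0.66) and Cd3d (-0.57) were lower in rat tail collagen than in media, and Cd8a (-0.21, adjusted p = 0.117) did not pass. The part of these differences in the receptor results was not tested.

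Ligands of the receptors were measured in the same libraries. Of 18 listed, 14 were in the table and 7 were tested in rat tail collagen against media. Of these 7, 3 were higher and 3 lower (median -0.13), where 58.4% of all genes tested were called. H2-T23, which encodes Qa-1, the ligand of CD94 with NKG2A, stood at 239 ± 15 CPM in media, against 159.9 ± 17.0 CPM in rat tail collagen (-0.59, adjusted p = 1.36e-04), lower together with Klrd1 and Klrc1. Clec2d, the ligand gene of Klrb1b, fell from 133 ± 8.41 to 62.1 ± 2.49 CPM (-1.10, adjusted p = 4.44e-07) where Klrb1b rose, and Clec2i, another member of that ligand family, rose from 43.3 ± 12.5 to 92.3 ± 1.01 CPM (1.08, adjusted p = 0.00114). Cdh1, the E-cadherin gene and a ligand of KLRG1, was, like Klrb1c, low in media and bovine collagen and higher in the other groups. It stood at 8.34 ± 1.19 CPM in naive cells, 0.315 ± 0.159 CPM in media, 0.454 ± 0.0736 CPM in bovine collagen and 10.9 ± 3.02 CPM in rat tail collagen (5.12 against media, adjusted p = 2.44e-07). The NKG2D ligand gene Ulbp1 rose with Klrk1 on activation, from 18.7 ± 3.15 CPM in naive cells to 82.7 ± 12.4 CPM in media (2.21, adjusted p = 2.77e-06), and was at 61.7 ± 2.99 CPM in rat tail collagen (-0.43, adjusted p = 0.00937), a gene named after its value was seen.

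All 12 adaptor and proximal signalling genes were tested. In rat tail collagen against media 3 were higher and 6 lower (median -0.04), beside 58.4% of all genes tested called. Beside Hcst, Pik3r1, a PI3K subunit that DAP10 recruits, was at -0.63 (adjusted p = 1.63e-04) and the kinase gene Lck at -0.54 (adjusted p = 2.36e-04), while Zap70 was higher (0.51, adjusted p = 2.34e-04). Tyrobp, the DAP12 adaptor of NKG2C, fell from 8.54 ± 5.26 CPM in naive cells to 0.610 ± 0.159 CPM in media (-3.73, adjusted p = 8.82e-05) and stood at 0.791 ± 0.483 CPM in rat tail collagen (0.37, adjusted p = 0.488). From naive to media 9 of the 12 fell and 1 rose, where 29.2% of all genes tested were lower and 31.6% higher.

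Of 12 other receptors that NK and cytotoxic T cells share, 11 were tested. Among these, 1 was higher and 7 lower in rat tail collagen than in media (median -1.24). The shares over all genes tested were 29.7% higher and 28.7% lower. Cd160 fell from 25.1 ± 2.06 to 4.44 ± 1.32 CPM (-2.49, adjusted p = 4.14e-07). Cd96, the CD155 receptor, fell by 1.90 on the log2 scale, and the SLAM family genes Slamf6 and Cd48 by 1.79 and 1.73. The 1 that rose was Havcr2, which encodes TIM-3 (1.66, adjusted p = 0.0384), named after its value was seen.

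Regulators of these genes in CD8+ T cells were tested in 16 cases. Of these, 3 were higher and 8 lower in rat tail collagen than in media (median -0.55), beside 58.4% of all genes tested called. Gata3 fell from 60.3 ± 2.75 to 18.6 ± 2.26 CPM (-1.71, adjusted p = 1.02e-07), Tgfbr2, a TGF-beta receptor, by 0.95 (adjusted p = 6.99e-07) and Ets1 by 0.87 (adjusted p = 8.55e-06). Tox rose from 7.97 ± 0.321 to 15.9 ± 1.30 CPM (0.99, adjusted p = 1.93e-05), though it stayed below its naive level of 65.8 ± 7.31 CPM. The other 2 that rose were Tbx21 (0.88, adjusted p = 1.29e-04), the T-bet gene, and Runx3 (0.40, adjusted p = 0.00131), both named after their values were seen. No gene of any of these lists, marker lists included, was called in bovine collagen against media, nor at an unadjusted p under 0.05, by DESeq2 or by limma-voom.

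From Klrb1c to Klrc1, over 900.5 kb, 51 genes are annotated and 49 were in the table. Of the 23 tested in rat tail collagen against media, 6 were higher and 10 lower. Of the 17 that are not among the 7 receptors, 5 were higher and 6 lower (median -0.13). Over all genes tested in this comparison 29.7% were higher and 28.7% lower. The higher ones included Klrb1b, next to Klrb1c, and the long noncoding RNA Gm44066 (4.35), while BC035044, also near Klrb1c, was lower (-3.02). Clec12a (-3.19) and Cd69 (-0.97), between both ends, were lower. Genes with opposite changes thus lay close together in the interval, in a comparison that called most genes in either direction. Gm44066, BC035044, Clec12a and Cd69 were named after their values were seen.

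**Figure D4:**
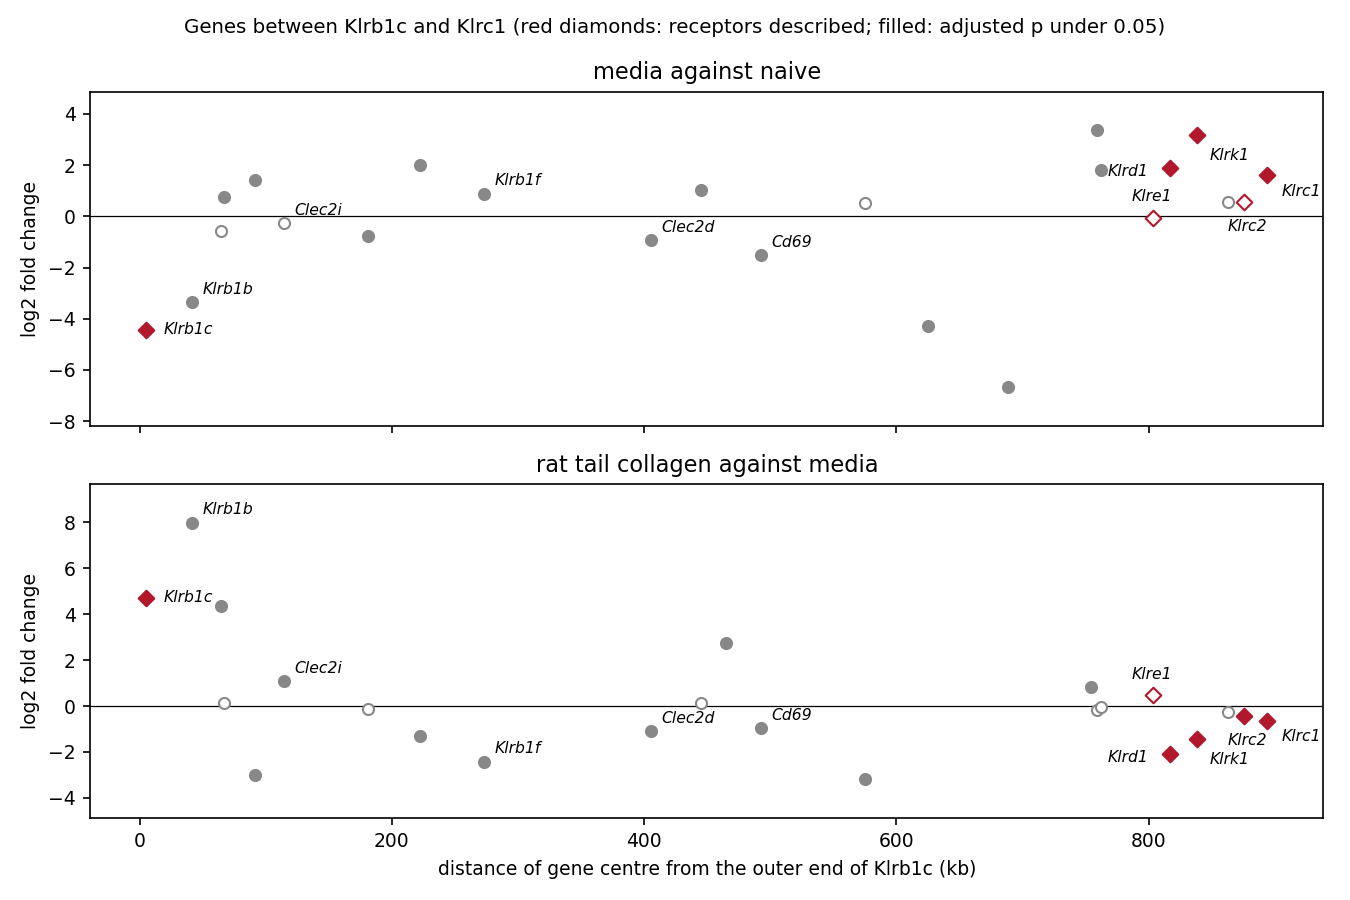
Log2 fold change (vertical axis) of each tested gene between Klrb1c and Klrc1 against the distance of its centre from the outer end of Klrb1c in kb; red diamonds are receptors described here, grey circles other genes, and filled symbols have an adjusted p under 0.05. Klrb1c and Klrb1b at the left end fall from naive cells to media and stand higher in rat tail collagen, and Klrd1, Klrk1 and Klrc1 at the right end show the reverse. Genes beside them do not all follow: BC035044, near Klrb1c, goes the other way (1.42, then -3.02). Klre1, at the right end, is called in neither panel.

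Over the 12 libraries, which share their 4 groups, log2 CPM of Klrc1 and Klrk1 had a Pearson r of 0.97, Klrc1 and Klrc2 of 0.85 and Klrd1 and Klrk1 of 0.82. Klrb1c was at -0.91 with Klrd1 and -0.75 with Klrk1. Klre1 was at -0.02 with Klrk1 and 0.50 with Klrb1c. The genes of highest r among 9564 candidates were Ly6a2 (0.996) and Smpdl3b (0.994) for Klrk1, and the same pair for Klrc1 at 0.978 and 0.976. For Klrd1 they were Crot (0.991) and Snrpe (0.988), for Klrb1c Tdrd7 (0.991) and Ubqln4 (0.979) and for Klrg1 Nrp2 (0.965) and Herpud1 (0.957). For Klrc2 they were Pik3ap1 (0.870) and Lilr4b (0.868), and for Klre1 Taco1 was among them (0.822). With 4 groups, such values mostly describe the order of the group means.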

How the data were processed

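RNA of 12 libraries (4 groups of 3) was depleted of ribosomal RNA before library preparation, per the labels' protocols. What the authors deposited is a single table of read counts by gene symbol, not normalized, and its whole numbers were used as they are. Per the submitters' processing notes, reads passed through HISAT2, featureCounts, SAMtools and Picard, with FastQC and MultiQC as quality checks, on GRCm38 (mm10). Versions, annotation and strand setting were not given in the sources used here, so antisense reads may be included.

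Counts were fitted with edgeR 4.0.16 (R 4.3.3; filterByExpr, TMM, robust quasi-likelihood F test, Benjamini-Hochberg adjustment over all genes tested, calls at an adjusted p under 0.05). The 9 day 4 libraries shared 1 fit, and each comparison with naive cells used its 6 libraries. The script was tested on simulated data. DESeq2 1.42.0, limma 3.58.1 (voom), other scalings, filters, left-out libraries and a replicate block were alternatives. The fit without a block is reported, because same-numbered libraries are not said to share a mouse. GENCODE M21 (GRCm38) gave positions and exon lengths, and RefSeq gave promoters.

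Members and lists were chosen with earlier results of these data known. Named genes were the 7 members, the 2 genes of highest r with each, up to 4 genes per list with the smallest adjusted p in rat tail collagen against media, and genes whose names follow from no such rule, all chosen after their values were seen. Results of some genes that the rule names are not reported here. Klrb1c and NK marker levels in each library are given as values.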

Additional observations from a re-analysis of the deposited data

How the results depend on the processing

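No receptor reversed where it was called. Changes that were not called did change sign, such as Klrb1c in bovine collagen against media (-0.3513 to 0.9081 with 1 library left out) and Klrd1 in rat tail collagen against naive (-0.4228 to 0.01642). Klrb1c, Klrd1 and Klrk1 kept their calls in all 18 alternatives of rat tail collagen against media. Receptors called in that comparison went from 5 to 3 with GC and length offsets, an alternative chosen after seeing the data, as was leaving out the 3 libraries of highest ribosomal share. The latter leaves 1 rat tail library, assumed to vary like the other groups. In it, genes changed went from 11319 to 6726 in rat tail collagen against media, from 10617 to 5485 in rat tail against bovine collagen and from 4 to 1 in bovine collagen against media. The count for bovine collagen was 9 with library totals, 22 with DESeq2, 39 without the filter, 2 in the fit of its 6 libraries and 2 to 5 with 1 library left out. Receptors called in rat tail collagen against naive ranged from 2 to 5 with 1 library left out, with 5 without naive library 1. Zap70 in rat tail collagen against naive reversed with GC and length offsets, from 0.38 to -0.1273 (adjusted p = 0.147). The cause of these changes was not tested.

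The labels give the groups shared replicate numbers. With the replicate block, bovine collagen against media had 7 genes changed, Klre1 was called in rat tail collagen against media (0.44, adjusted p = 0.0292), against bovine collagen (0.53, adjusted p = 0.0150) and against naive (0.33, adjusted p = 0.0314), and Klrc2 in bovine collagen against naive (0.73, adjusted p = 0.0308). It changed no other call of a receptor. Same-numbered libraries correlated in their deviations from the group means at 0.0788, 0.0426 and 0.116 for rat tail collagen and media, and each of these 6 libraries correlated best with its own number. For bovine collagen and media the values were 0.373, 0.029 and 0.444, where 5 of 6 did so. For rat tail collagen and naive cells they were 0.148, 0.0464 and 0.129, where 6 of 6 did so. Over the remaining comparisons they ran from -0.0254 to 0.0945. These numbers are a hint from the data and not the design. Depth limits Klrg1 in the day 4 libraries, at 0 to 11 counts each.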

Other observations

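Library 1 had the highest level of Klrb1c, Klrc1, Klre1 and Klrg1 in 4 of 4 groups, and of Klrk1 in 3 of 4, while library 3 was the highest of its group for none of the 7 receptors. For Klrc2 and Klrd1, libraries 1 and 2 were each the highest in 2 of 4 groups. Summed NK cell markers were also highest in library 1 of each group. They stood at 105 CPM in naive cells, 57.2 CPM in media, 57.7 CPM in bovine collagen and 19.4 CPM in rat tail collagen. Most of the sum in library 1 was Gzma in media (36.4 CPM) and in bovine collagen (37.6 CPM). Ncr1 was at most 0.0764 CPM in the media libraries and at most 0.251 CPM in the bovine libraries. The labels do not say whether a number marks a mouse or a preparation, and the part of these markers in the receptor levels was not tested.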
